A study of Mus musculus with 36 samples.

Results

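The extensor digitorum longus (EDL), a fast hindlimb muscle, was compared between mice that lack dystrophin and normal mice. The comparison was chosen by sample title and held 6 of the 36 samples of the series: 2 of C57BL10 EDL, 2 of mdx EDL and 2 of mdx5cv EDL. The C57BL10 mice are the normal controls. The mdx mice carry the spontaneous mutation of the dystrophin gene Dmd, and the mdx5cv mice carry a different, chemically induced allele of the same gene. Every sample was RNA pooled from the EDL of 5 male mice aged 8 weeks, hybridised to an MG_U74Av2 array, and no group received a treatment. The labels do not say whether the samples of a group came from separate pools of mice, so the p-values measure only the spread between these samples. They also give no strain background for the mdx5cv mice, so the allele and the background cannot be told apart. The labels of mdx EDL sample 1 disagree, since its free-text description reads mdx5cv. It was grouped by its title, as mdx. Signals are linear intensities, and differences are given on the log2 scale after values under 118 were raised to that floor.

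Dystrophin links the actin skeleton of the muscle fibre to a complex of membrane proteins and through it to the matrix outside. Without it fibres are easily damaged by contraction, and cycles of necrosis, macrophage entry, regeneration from satellite cells and matrix deposition follow. Fibres are fast or slow according to the myosin, troponin and calcium pump isoforms they express, and a mouse EDL consists almost wholly of fast fibres, whereas the soleus is rich in slow ones.

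Each of the 6 arrays had a median Spearman correlation between 0.912 and 0.934 to the other arrays of the series, all muscles included. For Gapdh the 3' control probe set over its 5' partner gave a ratio of 2.74 in mdx EDL sample 1, against ratios between 0.819 and 1.06 in the other 5. For actin the same ratio was 1.19 and 1.34 in mdx EDL, 0.900 and 1.03 in mdx5cv EDL and 0.782 and 0.924 in C57BL10 EDL. The part of these ratios in the results was not tested beyond leaving out each array. A shift shared by both mdx arrays cannot be told apart from the strain in that way. The 3 arrays labelled sample 2 were scanned on 1 day, with 1 chip lot. Their protocol entry was the same and differed from the entry shared by the 3 sample 1 arrays. The sample 1 arrays of both mutants came from an earlier scanning period and that of C57BL10 from an earlier one still, so the differences within the shared day, with 1 array per strain and no test, are given beside the main values where they bear on a result. In the C57BL10 EDL the fast myosin heavy chain Myh4 had signals of 97981.4 and 106305.6 and the slow heavy chain Myh7 1826.5 and 2199.7. In the C57BL10 soleus the corresponding signals were 40627 and 49605.5 for Myh4 and 86377.1 and 134756.7 for Myh7. The normal EDL samples thus carried the markers of a fast muscle.

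Dmd, the mutated gene, had signals of 728.4 and 1928.2 in C57BL10 EDL, 216.5 and 302.1 in mdx EDL and 203.9 and 403.3 in mdx5cv EDL. All 4 mutant arrays lay below both normal arrays. The mean of both mutants fell by 2.13 ± 0.52 (SE) on the log2 scale, with an adjusted p of 0.0212 in limma. Taken alone, mdx fell by 2.21 (adjusted p = 0.0420, and up to 0.423 without C57BL10 EDL sample 2 or either mdx array). For mdx5cv the difference of -2.05 did not pass (adjusted p = 0.113). The call for the mean was lost when mdx EDL sample 1, mdx5cv EDL sample 1 or C57BL10 EDL sample 2 was left out, with an adjusted p of up to 0.450. Utrn, which encodes utrophin, the closest relative of dystrophin, had signals of 935.5 and 608.6 in C57BL10, 685.0 and 781.4 in mdx and 930.0 and 565.5 in mdx5cv. The groups overlapped and the difference was -0.05 ± 0.44 (adjusted p = 0.992). Of the 13 tested genes for the dystrophin complex and membrane repair, Dmd was the 1 gene that passed the test, and the median difference over the list was -0.05.

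Across the array 157 of 5695 tested genes passed the test at an adjusted p under 0.05 when the mean of both mutants was set against C57BL10 EDL. Of these 139 were higher, 2.44% of the genes tested, and 18 were lower, 0.316%. Each mutant strain was also set against C57BL10 on its own. Both comparisons use the same C57BL10 arrays. In mdx EDL 135 genes were higher (2.37%) and 43 lower (0.755%), and in mdx5cv EDL 87 were higher (1.53%) and 9 lower (0.158%). All 4 mutant arrays lay above both C57BL10 arrays for 798 genes, 14% of those tested, and below both for 585, 10.3%. Among the 157 genes, 53 passed whichever EDL array was left out, 51 of them higher and 2 lower. Leaving out C57BL10 EDL sample 1 gave the smallest count, 88 probe sets against 193 over all arrays. All 139 higher and all 18 lower genes had the same sign within the shared scanning day. The arrays of that day were among those by which the genes were picked, so the agreement in sign is no separate test. With the scanning period as a block 121 of the higher and 14 of the lower genes passed. With that block 162 genes were higher in all (2.84%) and 39 lower (0.685%).

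**Figure D1:**
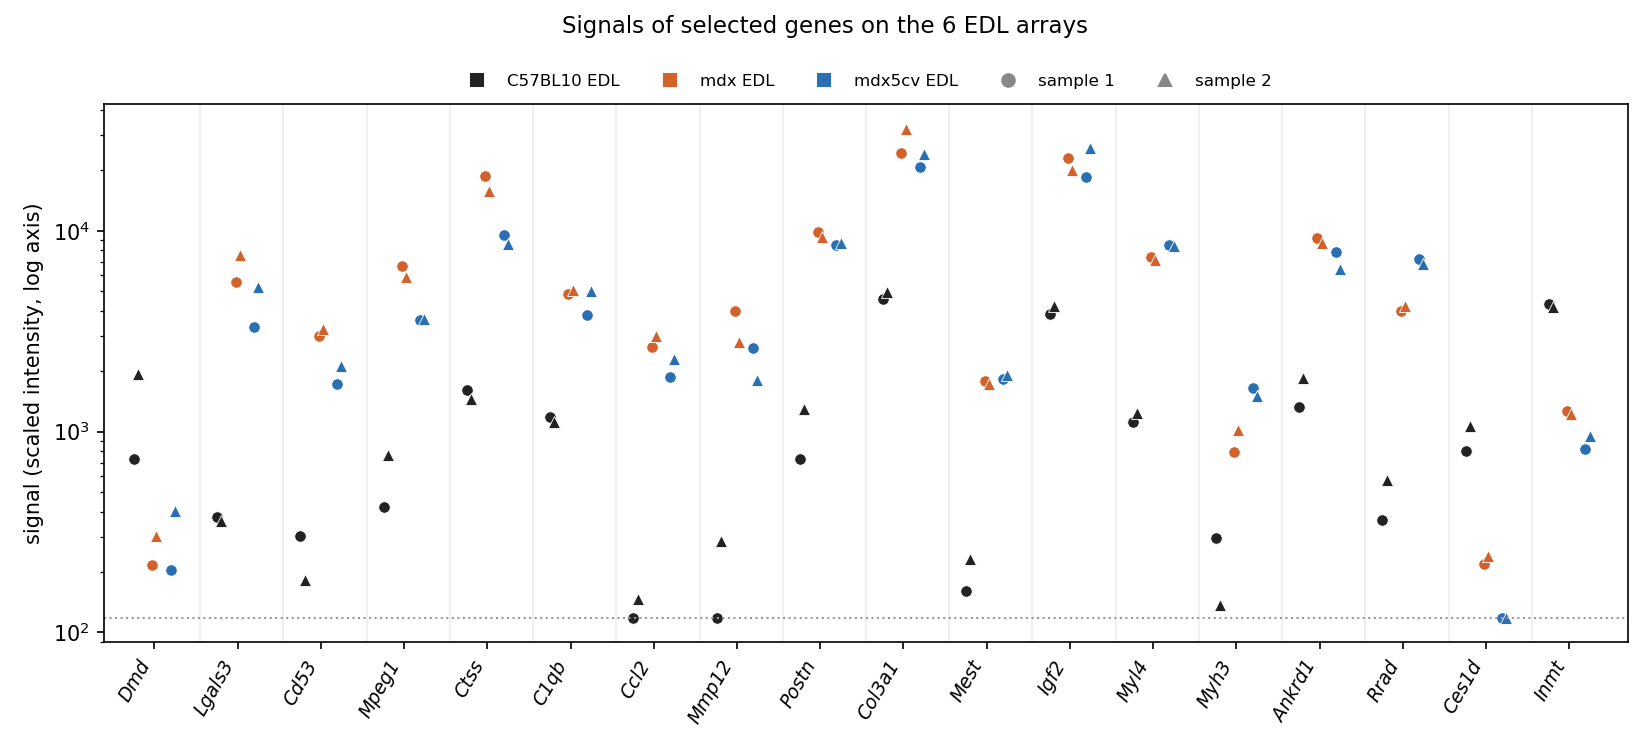
Signal of 18 genes on the 6 EDL arrays (log axis), by strain (colour) and sample number (shape); the dotted line is the floor of 118, and values under it are drawn on it. For the genes from Lgals3 to Rrad all 4 mutant arrays lie above both C57BL10 arrays, and for Dmd, Ces1d and Inmt all 4 lie below.

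Among the largest rises over normal EDL were genes of macrophages and the signals that draw them in. Lgals3, galectin-3, a lectin abundant in activated macrophages, had signals of 374.0 and 357.6 in C57BL10, 5530.3 and 7538.5 in mdx and 3334.6 and 5251.1 in mdx5cv. Mutant and normal arrays were far apart, and the rise was 3.83 ± 0.41 (SE, 4 arrays against 2), 14.2-fold, with an adjusted p of 1.7e-06 in limma. Mpeg1, the pore-forming perforin-2 of macrophages, had 421.0 and 765.8 in C57BL10, 6694.9 and 5899.6 in mdx and 3598.5 and 3619.6 in mdx5cv, a rise of 3.07 ± 0.28 (adjusted p = 1.7e-07). For both genes the mdx arrays were the highest and the mdx5cv arrays stood between. Cd53, a tetraspanin of leukocytes, rose by 3.37 ± 0.53 (adjusted p = 0.00025). Of 22 tested macrophage and monocyte markers 12 rose, none fell and 10 did not pass, with a median difference of 1.66 against 0.00 over all tested genes. Other members that rose, chosen after their values were seen, were the lysosomal glycoprotein Cd68 (2.20 ± 0.28), the lysozyme Lyz2 (2.67 ± 0.31) and the macrophage growth factor receptor Csf1r (1.52 ± 0.25). Adgre1, the F4/80 antigen, rose by 2.20 (adjusted p = 0.0177), with both C57BL10 arrays at the floor, so its size depends on the floor. Its call was lost without mdx5cv EDL sample 1, mdx EDL sample 2 or either C57BL10 array (adjusted p of up to 0.180). The mannose receptor Mrc1 differed by 1.17 (adjusted p = 0.0656). The summed signal of the markers was 16717 and 17399 in C57BL10, 68694 and 75828 in mdx and 48722 and 58816 in mdx5cv. In RNA of whole muscle a change in the number of such cells and a change in their RNA content cannot be told apart.

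The macrophage markers were on the whole higher in mdx than in mdx5cv EDL, without passing the test of that difference. The median rise over C57BL10 was 1.93 in mdx and 1.26 in mdx5cv. In 16 of the 22 genes the mdx5cv mean was below the mdx mean, and over all tested genes this held for 52.8%. None of the 22 differences passed, the smallest adjusted p being 0.393, for Adgre1 (-1.80 ± 0.60).

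Chemokines that attract monocytes were among the genes that rose. Ccl2, the main monocyte attractant, had signals of 102.8 and 146.9 in C57BL10, 2629.7 and 3007.4 in mdx and 1878.1 and 2295.0 in mdx5cv. The rise of 4.20 ± 0.50 (adjusted p = 1e-05) rests on 1 C57BL10 array under the floor. Ccl8, a chemokine of the same group, rose from 98.5 and 108.7 to between 1185.7 and 1899.0. Both normal arrays were under the floor, so its difference of 3.70 (adjusted p = 0.00012) depends on where the floor lies. Of 11 tested chemokines and receptors 4 rose and none fell (median 0.96), with 4 rises in mdx and 3 in mdx5cv. Of these, Ccl7 (2.54, adjusted p = 0.0087) lost its call without either C57BL10 array (adjusted p of up to 0.105), and its difference of 2.37 in mdx5cv did not pass (adjusted p = 0.0690).

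Some genes of complement, the lysosome and class II antigen presentation also rose, though most of each list did not pass. C1qb, a chain of the first complement component, had signals of 1175.9 and 1114.1 in C57BL10 and between 3795.3 and 5091.3 in the mutants, a rise of 2.02 ± 0.27 (adjusted p = 4.6e-05). Ctss, cathepsin S, a protease that trims the class II invariant chain, had 1613.8 and 1446.0 in C57BL10, 18793.1 and 15838.1 in mdx and 9581.2 and 8589.0 in mdx5cv. Its rise of 3.03 ± 0.26 (adjusted p = 7.4e-08) was an 8.19-fold increase, again with the mdx arrays highest. H2-Aa, a class II alpha chain, had 1572.7 and 938.3 in C57BL10, 4063.2 and 4260.2 in mdx and 7449.3 and 6764.6 in mdx5cv, and rose by 2.16 ± 0.28 (adjusted p = 2.5e-05). Here the mdx5cv arrays were the highest, but the difference between the strains, 0.77 ± 0.32, did not pass (adjusted p = 0.627). In all 4 of 9 complement genes (median 1.29), 4 of 28 lysosomal genes (median 0.50) and 4 of 15 antigen presentation genes (median 0.73) rose, and none fell. The call was lost without C57BL10 EDL sample 1 for the complement genes C3ar1 and Cd55 (adjusted p = 0.0837 and 0.0986) and for H2-Eb1 (0.0634). Cd74 lost it without C57BL10 EDL sample 2, mdx EDL sample 1 or mdx5cv EDL sample 1. This leaves 2 genes each in the complement and antigen presentation lists. Irf7, a transcription factor induced by interferon, was the 1 of 12 interferon-stimulated genes to rise (2.08, adjusted p = 0.0128, and 0.294 without C57BL10 EDL sample 1). Other blood cells could be read only in part: 6 of 20 listed lymphocyte markers, 5 of 16 listed neutrophil, eosinophil and mast cell markers and 7 of 11 listed erythroid markers were bright enough to be tested. None of these passed for the mean of both mutants.

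Among matrix genes, Postn, periostin, a matrix protein of healing tissue, had signals of 731.4 and 1298.2 in C57BL10, 9920.0 and 9335.4 in mdx and 8546.1 and 8721.8 in mdx5cv. The 4 mutant arrays lay close together, and the rise was 3.23 ± 0.27, 9.35-fold (adjusted p = 7.4e-08). Col3a1, the chain of type III collagen, rose from 4559.6 and 4977.2 to 24326.9 and 32277.7 in mdx and 20832.0 and 24071.7 in mdx5cv (2.39 ± 0.29, adjusted p = 1e-05). Col5a2, a type V collagen chain, rose by 1.99 ± 0.29 and Lum, the keratan sulfate proteoglycan lumican, by 1.72 ± 0.24. These were the 4 genes that rose among 30 of the fibrillar and interstitial matrix, and the other 26 did not pass (median 0.60). All 4 passed whichever array was left out. In the list of 17 basement membrane genes, which also held the type VI collagen gene Col6a3, 3 rose, Col6a3, Col4a1 and Col4a2 (median 0.67). Of these Col6a3 (1.63 ± 0.25, adjusted p = 0.00018) passed without any single array, whereas Col4a1 (adjusted p = 0.334 without C57BL10 EDL sample 1) and Col4a2 (adjusted p of up to 0.314) did not. Mmp12, the elastase of macrophages, had 58.7 and 284.7 in C57BL10, 3997.2 and 2803.1 in mdx and 2605.3 and 1800.5 in mdx5cv (3.88 ± 0.53, adjusted p = 4.7e-05). Mmp12 was 1 of 3 genes to rise among 10 matrix proteases and inhibitors (median 0.65). In Mmp12 1 normal array was under the floor, and within the shared scanning day the difference was 2.98. Of 13 fibroblast markers 1 rose, S100a4 (2.12 ± 0.28), a calcium-binding protein also found in macrophages, and of 5 tendon markers none passed.

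Genes of embryonic and regenerating muscle rose, with nearly equal medians in the strains. Mest, an imprinted gene expressed in mesoderm and in regenerating muscle, had signals of 160.9 and 232.9 in C57BL10, 1778.9 and 1721.0 in mdx and 1826.5 and 1903.5 in mdx5cv, a rise of 3.22 ± 0.41 (adjusted p = 2e-05). Myl4, the embryonic and atrial myosin light chain, had 1118.5 and 1232.5 in C57BL10, 7367.4 and 7161.4 in mdx and 8493.6 and 8394.6 in mdx5cv (2.74 ± 0.36, adjusted p = 3.3e-05). In both genes the arrays of a group differed little and the mutants did not overlap the controls. Myh3, the embryonic myosin heavy chain, had 295.7 and 137.7 in C57BL10, 790.4 and 1022.8 in mdx and 1643.5 and 1511.1 in mdx5cv, and rose by 2.56 ± 0.40 (adjusted p = 0.00027). Igf2, insulin-like growth factor 2, rose 5.41-fold, from 3844.6 and 4205.5 to between 18599.1 and 25978.9. Ankrd1, a stretch-responsive ankyrin repeat protein, rose from 1321.8 and 1840.4 to between 6419.2 and 9182.6. Of the 34 tested genes of this list 12 rose, none fell and 22 did not pass, with a median of 0.96. The 12 rises kept their call in 7 genes whichever array was left out. Myog, the transcription factor myogenin that starts terminal differentiation, rose by 1.73 ± 0.40 (adjusted p = 0.0143), but lost its call without mdx EDL sample 2 or C57BL10 EDL sample 1 (adjusted p of up to 0.483). Myod1 differed by 0.36 (adjusted p = 0.731) and Myf6 by 0.13 (adjusted p = 0.960). The neonatal heavy chain Myh8 differed by 1.36 (adjusted p = 0.118). The median differences of the list were 1.01 in mdx and 0.96 in mdx5cv.

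Rrad, a small GTPase that inhibits calcium channels and is induced in damaged muscle, rose on all 4 mutant arrays. Its signals were 361.8 and 576.7 in C57BL10, 4010.0 and 4245.3 in mdx and 7208.9 and 6833.3 in mdx5cv. The rise was 3.56 ± 0.34, 11.8-fold (adjusted p = 2.1e-07), and here the mdx5cv arrays were higher (by 0.77 ± 0.39, adjusted p = 0.802). The metallothionein Mt2, which binds zinc and answers to stress, rose from 4427.8 and 4341.8 to between 20180.7 and 25065.6 (2.35 ± 0.27, adjusted p = 5.6e-06), and Mt1 rose by 1.81.

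Genes of slow fibres rose mainly in the mdx5cv strain. Myh7, the slow myosin heavy chain, had signals of 1826.5 and 2199.7 in C57BL10, 1529.2 and 2466.5 in mdx and 28471.9 and 41868.5 in mdx5cv. The mdx arrays overlapped the normal arrays, and both mdx5cv arrays were far above all others. The difference from C57BL10 was 4.11 in mdx5cv (adjusted p = 3.4e-08) and -0.05 in mdx (adjusted p = 0.994), and mdx5cv exceeded mdx by 4.15 ± 0.34 (adjusted p = 8e-08). Myl3, the slow and ventricular essential light chain, had 1192.7 and 1248.0 in C57BL10, 428.8 and 1124.9 in mdx and 14163.4 and 29454.0 in mdx5cv. Tnnc1, slow troponin C, had 700.8 and 1080.3, then 1285.1 and 1225.6, then 13168.6 and 13475.4 in the same order of strains. In both of these genes, too, the mdx5cv arrays stood alone. Myl2, the slow regulatory light chain, had 7051.7 and 5676.5 in C57BL10, 3412.2 and 2843.9 in mdx and 34801.5 and 46555.8 in mdx5cv. Tpm3, slow tropomyosin, had 2829.9 and 3403.0, 3417.5 and 2922.4, and 24617.9 and 22601.7. The strain difference was 4.88 ± 0.50 for Myl3, 3.41 ± 0.55 for Tnnc1, 3.69 ± 0.52 for Myl2 and 2.90 ± 0.34 for Tpm3. Each passed, with adjusted p between 3.9e-06 and 0.0024, though Tnnc1 reached 0.0608 without mdx5cv EDL sample 2, 0.0535 with quantile normalisation and 0.0541 with each array centred on its median.

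A smaller group of slow fibre genes was raised in mdx EDL as well. Atp2a2, the slow calcium pump, had signals of 781.7 and 688.6 in C57BL10, 2409.0 and 2589.1 in mdx and 11616.0 and 14016.1 in mdx5cv. Tnni1, slow troponin I, had 1902.2 and 2062.5, 6112.7 and 7802.1, and 32055.9 and 34485.8. Tnnt1, slow troponin T, had 2558.8 and 2268.5, 8463.5 and 5665.0, and 38270.5 and 21986.3. The 3 strains did not overlap in any of these genes, and their order was C57BL10, mdx, mdx5cv. The mdx difference was 1.77 for Atp2a2 (adjusted p = 0.0013), 1.80 for Tnni1 (adjusted p = 0.0016) and 1.52 for Tnnt1, which did not pass (adjusted p = 0.0628). The mdx5cv differences were 4.12, 4.07 and 3.59. Between the strains Atp2a2 and Tnni1 differed by 2.35 ± 0.32 and 2.27 ± 0.33 (adjusted p = 0.00022 and 0.00046; for Tnni1 0.0541 with median centring), and Tnnt1 by 2.07 ± 0.44 (adjusted p = 0.0524).

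Of 13 tested slow fibre proteins, 7 rose in the mean of both mutants, 2 in mdx and 8 in mdx5cv, with medians of 1.48, 0.03 and 2.93. The mean of both mutants thus averages unlike strains here. Of the 7 rises in the mean, Myl3, Tnnc1 and Tpm3 lost their call without C57BL10 EDL sample 1 (adjusted p = 0.315, 0.218 and 0.117), and Myl3 also without C57BL10 EDL sample 2, mdx EDL sample 2 or mdx5cv EDL sample 2. All calls of these genes in mdx5cv against C57BL10 held whichever array was left out except that of Myl2, which was lost without mdx5cv EDL sample 2 or C57BL10 EDL sample 2 (adjusted p of up to 0.101). The slow fibre genes Mb, Casq2, Actn2, Fhl1 and Cryab passed in none of these comparisons. Mb, myoglobin, had 48246.0 and 42283.7 in C57BL10 and between 25400.4 and 30768.4 in the mutants, a difference of -0.65 (adjusted p = 0.489). Of 14 tested fast fibre proteins 1 rose, Mybph, a myosin-binding protein of fast fibres (1.43, adjusted p = 0.0215, lost without either C57BL10 array or either sample 2 mutant array, adjusted p of up to 0.222), and none fell. Mybph differed by 2.18 in mdx5cv (adjusted p = 0.0026, and 0.0703 without mdx5cv EDL sample 2) and by 0.67 in mdx (adjusted p = 0.565), where sample 1 lay within the normal signals. The median was -0.21 in mdx and -0.14 in mdx5cv. In 7 of the 14 both mdx arrays lay below both C57BL10 arrays, which held for 24.1% of all tested genes, and none of these differences passed. Myh4 had 77866.7 and 84097.6 in mdx and 60768.9 and 121773.8 in mdx5cv, where the 2 arrays lay on either side of the normal ones.

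**Figure D2:**
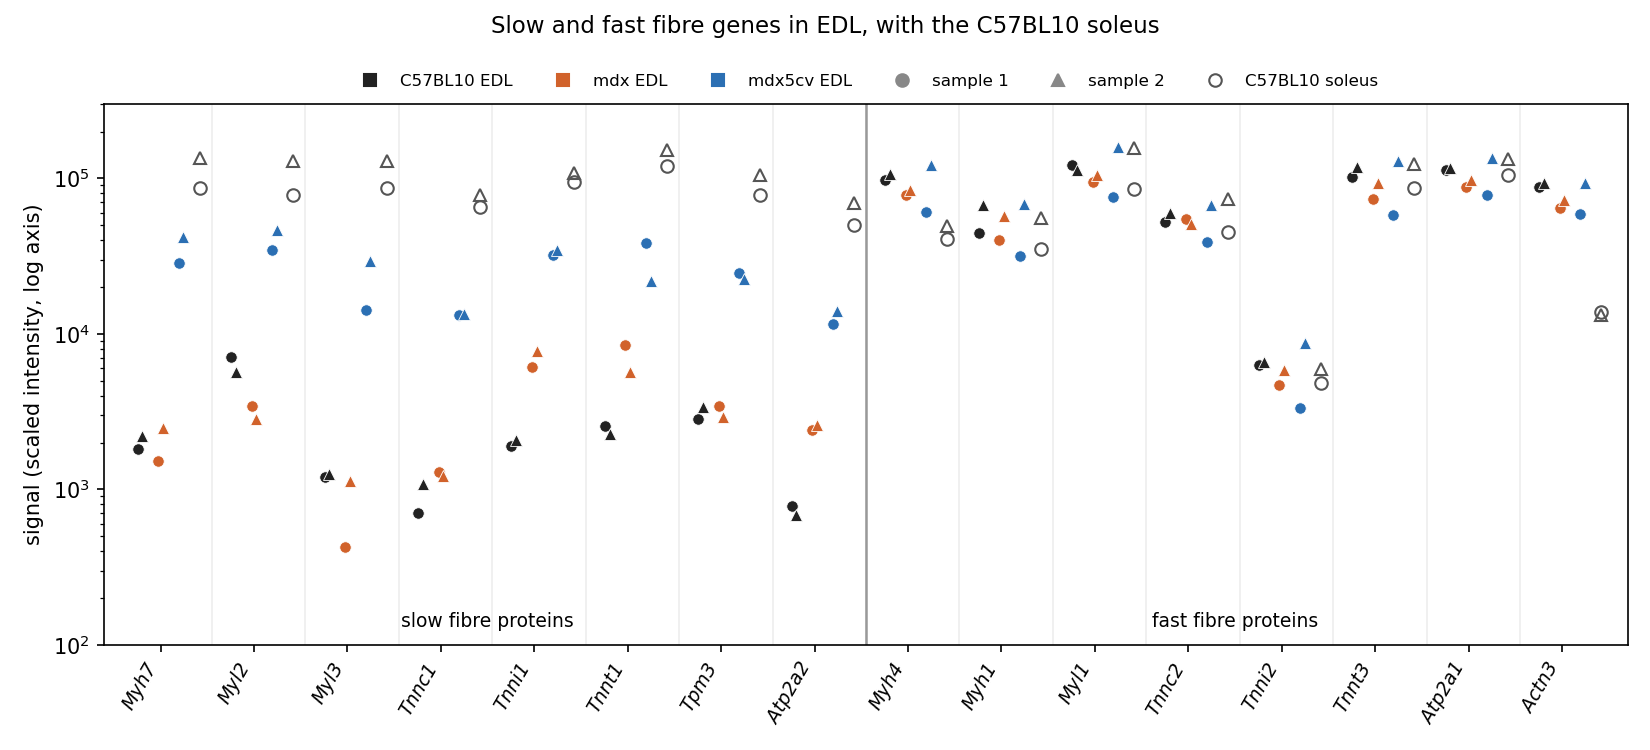
Signal of 8 slow and 8 fast fibre genes on the 6 EDL arrays, with the 2 C57BL10 soleus arrays as open symbols (log axis; colour, strain; shape, sample number). In the slow genes both mdx5cv arrays lie between the other EDL arrays and the soleus, and in the 8 fast genes the mdx5cv arrays overlap the C57BL10 arrays while both mdx arrays lie below them in 6.

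The 8 slow fibre genes with the largest excess in soleus gave a scale for these levels. Their mean level in C57BL10 EDL was between 1.16% and 6.29% of that in C57BL10 soleus, with a median of 1.81%. In mdx EDL it was between 0.660% and 6.85% (median 3.29%) and in mdx5cv EDL between 18.7% and 40% (median 23.9%). The 20 genes with the highest excess of C57BL10 soleus over C57BL10 gastroc, quadriceps and TA, a choice made after the data were seen and without EDL arrays, included these 8. The other 12 had a median difference from C57BL10 EDL of 0.08 in mdx and 0.66 in mdx5cv, and 11 of them were higher in mdx5cv than in mdx, against 47.1% of all tested genes. The 18 genes outside the fibre lists with the lowest soleus levels by the same measure had medians of -0.13 in mdx and -0.57 in mdx5cv, and 3 were higher in mdx5cv than in mdx. The measure includes C57BL10 TA sample 2, whose median Spearman correlation to the other arrays was 0.621. Of the 18, Alb had signals of 187.2 and 73.5 in C57BL10 soleus and 72.1 and 98.2 in C57BL10 EDL. Mup5 had 76.5 and 306.4 in soleus and 74.7 and 96.9 in EDL, so neither was low in soleus beside EDL. The rest had a lower mean in soleus. Among the 12 genes with high soleus levels, Pdlim1, a LIM domain protein, differed from C57BL10 EDL by 1.34 in mdx5cv. Of the same 12, Csrp3, a muscle LIM protein, differed by 0.31 and Nnt, a mitochondrial transhydrogenase, by 0.36. Idh2 differed by 0.04 and Ldhb by -0.74. B3galt2, the 1 gene of the 12 that was lower in mdx5cv than in mdx, differed from C57BL10 by 2.27 in mdx5cv and 2.55 in mdx. Ankrd2 was the 1 gene of the 12 to pass between the strains. It differed from C57BL10 by -1.94 in mdx and by 0.68 in mdx5cv. A part of soleus tissue in the mdx5cv EDL pools was not tested.

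Since several slow fibre genes moved together in mdx5cv EDL, the 250 bases before the transcription start of 4 of them are shown, from RefSeq (build GRCm38.p6), 5' to 3' on the gene's strand. The most upstream of the listed starts was used. Capitals mark matches on either strand to the E-box CAGCTG, a site bound by myogenic factors, or to the CArG box, the site of serum response factor. The MEF2 site was searched as well.
Tnni1, chr1:135799171-135799420, plus strand: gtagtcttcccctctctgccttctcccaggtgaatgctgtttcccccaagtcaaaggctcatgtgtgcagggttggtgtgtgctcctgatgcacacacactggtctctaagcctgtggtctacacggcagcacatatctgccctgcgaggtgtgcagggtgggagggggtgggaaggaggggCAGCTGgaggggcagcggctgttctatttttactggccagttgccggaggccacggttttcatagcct
Tpm3, chr3:90072401-90072650, plus strand: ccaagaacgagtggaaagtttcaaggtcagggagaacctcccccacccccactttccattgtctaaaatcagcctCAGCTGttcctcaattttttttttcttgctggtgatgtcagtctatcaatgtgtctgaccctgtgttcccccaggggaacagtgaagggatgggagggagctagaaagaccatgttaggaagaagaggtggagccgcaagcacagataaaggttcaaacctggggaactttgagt
Myl3, chr9:110763428-110763677, plus strand: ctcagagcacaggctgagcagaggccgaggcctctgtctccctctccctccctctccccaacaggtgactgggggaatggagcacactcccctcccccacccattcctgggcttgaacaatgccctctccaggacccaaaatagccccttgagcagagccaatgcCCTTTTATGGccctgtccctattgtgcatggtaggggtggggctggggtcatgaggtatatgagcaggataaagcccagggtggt
Myh7, chr14:54994627-54994876, minus strand: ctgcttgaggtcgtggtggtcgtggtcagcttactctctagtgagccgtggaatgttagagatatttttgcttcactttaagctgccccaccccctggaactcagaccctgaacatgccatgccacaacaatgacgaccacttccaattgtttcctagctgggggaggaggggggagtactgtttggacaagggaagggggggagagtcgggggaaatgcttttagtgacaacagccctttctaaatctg
The E-box stood 68 bases before the start in Tnni1 and 175 in Tpm3, and the CArG box 85 bases before it in Myl3. In Myh7 these letters are not in the window, and none of the 4 held the MEF2 site. Of 32851 promoters of all genes in the table, 13% held CAGCTG, 1.47% a CArG box and 1.69% a MEF2 site. Of the 18 promoters listed for 11 of the 13 tested slow fibre genes, 6 held CAGCTG (33.3%). It was also in 6 of the 11 promoters listed for 10 tested fast fibre genes (54.5%), so it did not set the slow genes apart. A match is a description of the letters and not of a bound site.

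With both mutants averaged, slow fibre genes changed more in EDL than on average in the diaphragm, gastroc, quadriceps, soleus and TA. The EDL values came mainly from mdx5cv, with differences of 4.11 for Myh7, 4.07 for Myl3 and 3.94 for Tnnc1. In mdx EDL these 3 genes differed by -0.05, -0.81 and 0.53, and none passed. Atp2a2 and Tnni1 rose in mdx EDL as well, by 1.77 and 1.80. Each muscle was not tested against EDL on its own, and mdx and mdx5cv gastroc hold 1 array each, since the others were identical copies. The difference of mutants from C57BL10 in EDL was set against its mean over those 5 muscles for every gene, and 7 genes passed, 0.123% of those tested. All 7 were slow fibre genes with a higher value in EDL: Atp2a2, Myh7, Myl3, Tnnc1, Tnni1, Tnnt1 and Tpm3. Myh7 differed from C57BL10 by 2.03 in EDL and by -0.61 on average in the other muscles, where the range was -1.67 in quadriceps to 0.19 in diaphragm, and the difference of the changes was 2.64 ± 0.32 (adjusted p = 9.7e-05). Myl3 differed by 1.63 in EDL and by -1.66 in the others, with all 5 below 0. Atp2a2 differed by 2.94 in EDL and by -0.15 in the others, and Tnni1 by 2.94 and 0.70. In TA, another fast hindlimb muscle, 4 of the 7 genes were also higher by over 1 on the log2 scale. The differences there were 1.05 for Atp2a2, 1.62 for Tnni1, 1.65 for Tnnt1 and 1.28 for Tnnc1, and Tnni1 differed by 1.52 in diaphragm. The TA and quadriceps values include arrays of low median Spearman correlation to the others, 0.621 for C57BL10 TA sample 2 and 0.77 for mdx5cv quadriceps sample 2. Of the 7, 4 held with any EDL array left out, while Tnnc1 was lost without any of the 6, Tnnt1 without 4 of them (C57BL10 EDL samples 1 and 2, mdx EDL sample 1 and mdx5cv EDL sample 1) and Tpm3 without C57BL10 EDL sample 1 (adjusted p of up to 0.729, 0.233 and 0.233). The same 3 did not pass with median centring (adjusted p = 0.375 for each). When mdx EDL sample 1 was grouped as mdx5cv, as its description reads, 0 probe sets passed here and 0 between the strains, with 210 and 98 at an unadjusted p under 0.05. The slow gene signals of that array were nearer to those of mdx EDL sample 2 than to those of mdx5cv EDL. These genes carry the strain difference in question, so they cannot decide which label is right.

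**Figure D3:**
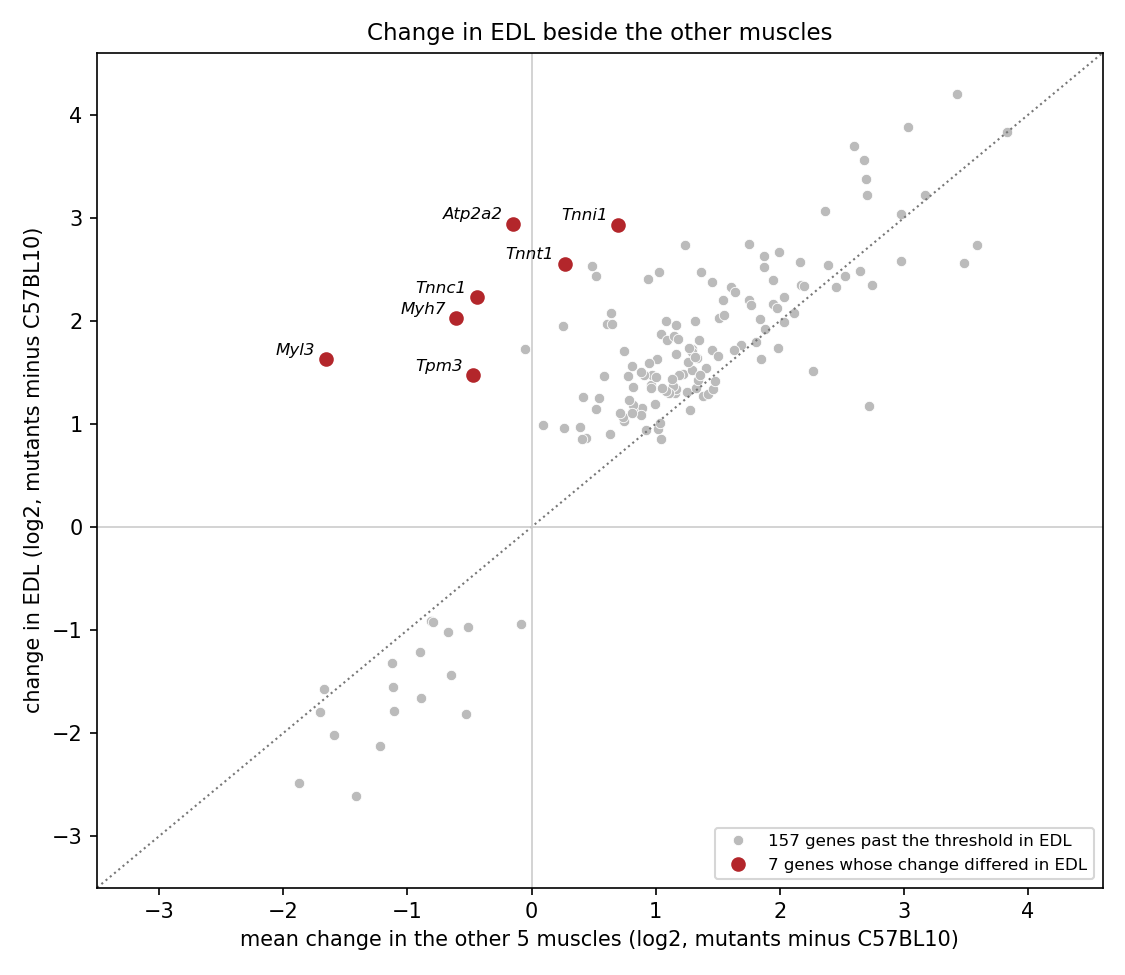
Difference of the mean of both mutants from C57BL10 in EDL (vertical, log2) and averaged over the other 5 muscles (horizontal, log2) for the 157 genes past the threshold in EDL; the dotted line marks equal change. Of the 139 higher genes 133 lie right of 0, and the 7 slow fibre genes in red have the larger value in EDL.

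Most genes that changed in EDL had the same sign of change in the other muscles. Of the 139 higher genes 133 were also higher on average in the other 5 muscles, and all 18 lower genes were lower there. In every one of the other muscles 111 of the 139 were higher, against 13.5% of all tested genes, and 15 of the 18 lower, against 8.66%. The median difference of the 139 was 1.73 in EDL and 1.25 elsewhere. The genes had been picked by their EDL values, so the larger EDL value is no finding. Car3, muscle carbonic anhydrase, was a departure. It had 8290.3 and 11214.9 in C57BL10 EDL and between 24179.0 and 37438.3 in the mutants, a rise of 1.73 (adjusted p = 0.0128), against -0.05 in the other muscles, but the difference of 1.78 did not pass (adjusted p = 0.297). The rise was lost without either C57BL10 array or mdx5cv EDL sample 2 (adjusted p of up to 0.275).

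Between the mutant strains 12 genes differed, 0.211% of those tested, and all were higher in mdx5cv EDL. With quantile normalisation 10 probe sets were higher and 2 lower, against 13 and 0 as scaled by the authors. The slow fibre genes Myh7, Myl2, Myl3, Tnnc1, Tnni1, Tpm3 and Atp2a2 made up 7 of the 12. The other 5 had a lower mean in mdx than in C57BL10. Slc27a1, a fatty acid transporter, had signals of 3059.3 and 2085.8 in C57BL10, 73.5 and 137.8 in mdx and 1120.7 and 1610.6 in mdx5cv (3.40 ± 0.63 higher in mdx5cv, adjusted p = 0.0110). Erdr1 had 8219.1 and 4774.4, 942.5 and 828.9, and 4630.7 and 5432.7. Prkag1, a regulatory subunit of AMP-activated kinase, had 1517.1 and 1204.8, 128.6 and 159.2, and 1374.1 and 1271.6. In these 3 genes both mdx arrays lay far below all other EDL arrays. Ankrd2, an ankyrin repeat protein of slow fibres, and Spg21 had strain differences of 2.62 and 2.85. Slc27a1, Erdr1 and Prkag1 lost their calls without any single mutant array (adjusted p of up to 0.304), and Spg21 without mdx5cv EDL sample 2 or mdx EDL sample 1 (adjusted p of up to 0.372). With median centring Erdr1, Prkag1 and Spg21 were at 0.191, 0.0541 and 0.0541, and with quantile normalisation Prkag1 was at 0.231 and Spg21 at 0.162. No gene was higher in mdx at the adjusted threshold, and 141 probe sets were at an unadjusted p under 0.05, against 335 higher in mdx5cv.

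Among the 18 genes that fell, Inmt, an amine methyltransferase, had signals of 4330.5 and 4186.4 in C57BL10, 1263.2 and 1226.3 in mdx and 823.6 and 953.8 in mdx5cv. The arrays of each strain were close, and the fall was by 2.02 ± 0.29 (adjusted p = 8.5e-05). Ces1d, a carboxylesterase of fat and liver, had 798.4 and 1064.7 in C57BL10, 219.8 and 239.7 in mdx and 90.2 and 37.2 in mdx5cv, both under the floor. Its fall was by 2.49 ± 0.43 (adjusted p = 0.00067). Inmt and Ces1d were the 2 falls that held whichever array was left out. Slc27a1 (-2.61, adjusted p = 0.0059) and Gadd45g, a growth arrest protein (-1.66, adjusted p = 0.0035), lost their calls without C57BL10 EDL sample 1 (adjusted p = 0.167 and 0.124). Mstn, myostatin, the inhibitor of muscle growth, had 4145.9 and 6104.8 in C57BL10, 2120.4 and 2140.5 in mdx and 1583.6 and 1651.1 in mdx5cv (-1.44, adjusted p = 0.0095, and 0.225 without C57BL10 EDL sample 2 and 0.0650 with median centring). Ppp1r3c, which targets a phosphatase to glycogen, had 6152.4 and 6660.5, then 663.8 and 1397.5, then 3673.9 and 3476.6 (-1.79, adjusted p = 0.0079, and up to 0.102 without mdx EDL sample 1 or either C57BL10 array). In Slc27a1 and Ppp1r3c the mdx arrays were lowest, with differences from C57BL10 of -4.31 and -2.73 in mdx. In mdx5cv alone the differences were -0.91 and -0.84 and did not pass in limma (adjusted p = 0.799 and 0.614). For Slc27a1 1 mdx array was under the floor.

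Few genes of the metabolic lists passed, though most members lay below C57BL10 in the mean of both mutants. Of 50 oxidative phosphorylation, 25 fatty acid and 24 glucose genes 6, 4 and 5 had a difference over 0, against 2853 of all 5695. In that order all 4 mutant arrays lay below both C57BL10 arrays for 12, 9 and 7 genes, against 10.3% of all tested genes. They lay above both for 1, 3 and 1, against 14%. Within the shared scanning day the medians of the fatty acid and glucose lists were -0.42 and -0.08. Of 50 oxidative phosphorylation genes none passed (median -0.23, and -0.02 within the shared scanning day). Of 25 genes of fatty acid uptake and oxidation 2 rose, Cpt1a, the gate of mitochondrial fatty acid entry, and Pdk4, a kinase that blocks pyruvate oxidation, and Slc27a1 fell (median -0.42). Cpt1a (2.02, adjusted p = 0.0016) reached 0.0512 without C57BL10 EDL sample 2, and Pdk4 (2.00, adjusted p = 0.0125) reached 0.486 without C57BL10 EDL sample 1. Of 24 genes of glucose use and glycogen 1 rose and 2 fell (median -0.19), and of 23 cell cycle genes 3 rose (median 0.70), none of which held with every array left out in turn. None of 13 endothelial, 13 adipocyte, 12 liver or 4 Schwann cell markers passed for the mean of both mutants, with medians of 0.11, 0.13, 0.00 and 0.04.

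**Figure D4:**
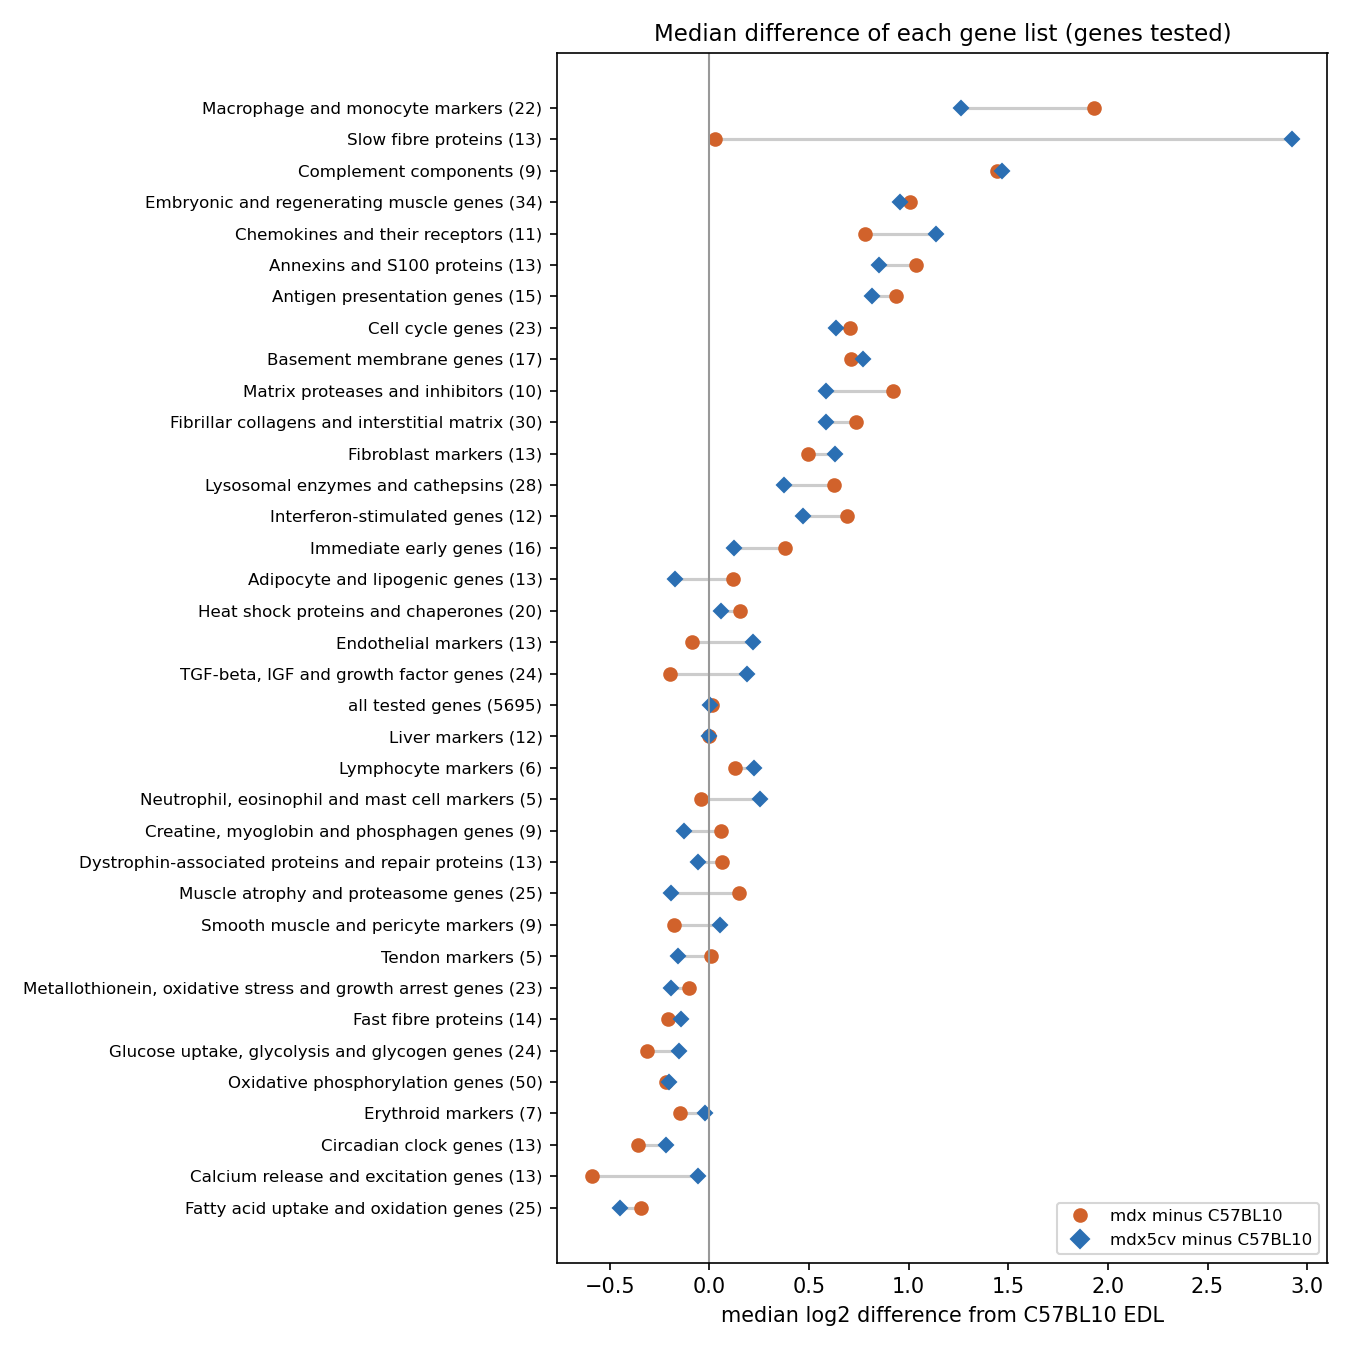
Median log2 difference from C57BL10 EDL in mdx (circles) and mdx5cv (diamonds) for each gene list with at least 5 tested genes (number in brackets). The slow fibre list has the widest gap, 0.03 in mdx and 2.93 in mdx5cv, and the macrophage list is at 1.93 and 1.26.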

How the data were processed

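The deposited values are signal intensities per probe set on a linear scale, scaled per array by the authors to a common trimmed mean, as the values themselves show. Which algorithm made the signals is not given here. Chip lot, protocol entry and scan day came from the experiment files of 30 arrays. Of the 36 columns 2 were exact copies and were left out, so mdx and mdx5cv gastroc hold 1 array each. Precision is limited by the number of arrays, 2 in every other group. Values under the 20th percentile (118) were raised to it and log2 was taken. Probe sets with a mean under the 40th percentile were left out, which left 7453, and each of 5695 genes was read from its brightest probe set with 1 symbol. Group means of all 18 groups were fitted in R 4.3.3 by limma 3.58.1, with a trend in the prior variance and 16 residual degrees of freedom, and p-values were adjusted by Benjamini-Hochberg within each contrast over all probe sets. The fit was tested only on simulated data with independent errors and no effect of scanning day or chip lot, so that test does not cover such effects. The sample numbers were not used as a block.

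The members and the gene lists were chosen with earlier results of these data known. Named were Dmd and Utrn, the 8 highest and 8 lowest genes with the same sign in both strains, up to 3 genes per list, and up to 4 per direction between the strains and 5 between EDL and the other muscles. Other list members named were chosen after their values were seen. Alternatives were other scalings, floors, filters, variance settings, blocks and weights, and leaving out each EDL array, after which the lone array of a strain is assumed to vary like the other groups.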

Additional observations from a re-analysis of the deposited data

Results flagged for a closer look

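By limma's test of the difference itself, 7 genes changed differently in EDL than on average in the other 5 muscles, with both mutants averaged. The change from C57BL10 was larger in EDL by 3.09 on the log2 scale for Atp2a2, 2.64 for Myh7 and 3.29 for Myl3. For Tnnc1 it was larger by 2.67, for Tnni1 by 2.24, for Tnnt1 by 2.29 and for Tpm3 by 1.95. All 7 encode slow fibre proteins. Between the mutant strains 12 genes differed by the same kind of test. The slow fibre genes were higher in mdx5cv than in mdx EDL by 4.15 for Myh7, 4.88 for Myl3, 3.69 for Myl2, 3.41 for Tnnc1, 2.90 for Tpm3, 2.35 for Atp2a2 and 2.27 for Tnni1. The remaining differences were 2.62 for Ankrd2, 2.50 for Erdr1, 3.21 for Prkag1, 3.40 for Slc27a1 and 2.85 for Spg21. No group held enough arrays for a test of single outlying samples.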

How the results depend on the processing

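The counts here are of probe sets past the threshold, in the order both mutants, mdx and mdx5cv against C57BL10, mdx5cv against mdx, and EDL against the other muscles, which over all arrays were 193, 232, 118, 13 and 7. Median centring gave 118, 130, 54, 7 and 4, and moved the median of all probe sets to -0.12 for mdx5cv and -0.19 between the strains. A minimum fold of 1.5 gave 65, 67, 36, 8 and 4. Array weights gave 401, 622, 197 and 74 for the first 4, arrays of low correlation left out gave 363, 389, 214 and 27, and chip lot as a random block gave 313 and 357 against C57BL10 and 34 between the strains. Between the strains the 6 EDL arrays alone gave 22 and the scanning period as a block 23. With mdx EDL sample 1 grouped as mdx5cv, mdx gave 66 and the last 2 comparisons 0 and 0. The causes of these shifts were not tested. Leaving out 1 array gave 88 to 164, 77 to 211, 46 to 104, 7 to 21 and 4 to 8. Utrn, which did not pass, lay between -0.36 and 0.26 with 1 array left out and at 0.13 on the shared scanning day. Sample numbers as a replicate block gave 226, 261, 123, 16 and 7. The difference of sample 2 from sample 1 correlated between -0.36 and 0.62 over 120 pairs of groups (median 0.05), and between 0.18 and 0.25 among the EDL groups, whose sample 2 arrays share a scanning day, so the numbers were not taken to pair samples. Of the 60 named genes called in mutant EDL 29 kept their call with any array left out and 58 with the scanning period as a block. No group held 2 arrays in a single scanning period, so a fit within a period gave no test.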
